A study of Mus musculus with 6 samples.

Results

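Lungs of Bdnf lox/lox and Hgf lox/lox mice at P21, which served as the controls of 2 conditional knockouts, were compared with each other by single-cell RNA sequencing. A barcode counted as a member when it held at least 1500 unique molecular identifiers (UMIs, each standing for 1 captured transcript) in the Bdnf control or at least 700 in the Hgf control, of which at most 25% were mitochondrial. This rule kept 16749 of 17155 barcodes at the minimum in the Bdnf control and 14095 of 14622 in the Hgf control, together 30844 of the 78319 that the same kind of rule keeps over 4 lung and 2 cortex libraries. The study deleted Bdnf, Hgf or Nodal in pericytes with the Pdgfrb(BAC)-CreERT2 transgene (the mutants are called iPCKO). The control mice carried the floxed alleles and lacked the transgene, and like the mutants they had received 50 µg tamoxifen in each of 3 injections from P1 to P3. Each library pooled cells of 2 mice of 1 genotype after magnetic depletion of CD45+ cells and of erythroid Ter119+ cells. Sex and the genetic background of the floxed lines were not given per library in the sources used here.

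Since neither control carried the recombinase, the comparison shows how far 2 lungs without induced deletion differ, as background for the knockout comparisons. The paper compared each mutant with littermate controls of its own line, whereas the comparison of the controls crosses lines. With 1 library per genotype, the floxed allele, the mice and the library cannot be told apart. No test was possible and no p-value is given. Intervals are exact 95% intervals that cover counting error only, and a gene was called apart at a 2-fold difference.

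The alveolus is lined by flat AT1 cells, across which gas is exchanged, and by AT2 cells, which make surfactant and renew the AT1 cells. Its capillaries hold general capillary cells (gCap), which can divide, and aerocytes (aCap), which lie against AT1 cells. During postnatal septation myofibroblasts lay down elastin at the tips of the growing septa and disappear afterwards, while matrix fibroblasts, pericytes and adventitial fibroblasts remain.

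The deposited matrices held 169814433 UMIs in the Bdnf control and 73446420 in the Hgf control. After removal of 927 and 761 predicted doublets (5.53 and 5.40% of members), 15822 and 13334 cells remained, with medians of 6969 and 3892 UMIs. In a random draw of cells with at least 1500 UMIs, each thinned to 1500, the medians were 918 and 871 genes. The draw leaves out the 1687 Hgf control cells below that depth. The cells of both lungs formed 39 clusters, of which 2 were immune and 7 stayed unnamed. The unnamed ones carried markers of unrelated classes or too few markers of their first class that stood out. The libraries shared 230 cell barcodes (1.45 and 1.72% of their cells), drawn from the same list of 912673. The tissue label fitted the markers: 7 AT2 markers summed to 19234 and 21623 CPM (the UMIs of a gene per 1000000 UMIs of the group of cells) in epithelial cells and to 567 and 458 CPM in endothelial cells. The 8 endothelial markers summed to 16412 and 15691 CPM in endothelial cells and to 157 and 129 CPM in epithelial cells. Immune cells were scarce after the depletion, with 74 cells (0.468%, 0.367 to 0.587%) and 106 cells (0.795%, 0.651 to 0.961%), and no cluster was named immune when all 4 lungs were clustered together. One immune cluster was led by S100a8, Mpo and Elane, genes of immature granulocytes, and the other by Ccl3, Ccl4 and Mcpt8.

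Mesenchymal cells were the lineage that differed most in relative terms. They made up 16.8% (16.2 to 17.4%) of Bdnf control cells and 6.61% (6.19 to 7.04%) of Hgf control cells, a difference of -10.2 percentage points. Endothelial cells made up 26.9% (26.2 to 27.6%) and 36.0% (35.2 to 36.9%), a difference of 9.14 points. Epithelial shares were close, at 48.9% (48.1 to 49.7%) and 50.6% (49.8 to 51.5%). Unnamed clusters held 6.91 and 5.94% of cells. The endothelial difference moved with the minimum of UMIs. With 1500 UMIs in both libraries it was 2.59 points and the epithelial difference 7.19 points, while the mesenchymal difference was -10.7 points. Endothelial cells were the shallowest lineage of the Hgf control, at a median of 2135.5 UMIs, and 1268 of its 4804 endothelial cells lay below 1500 UMIs.

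Most of the mesenchymal difference lay in the myofibroblasts. There were 1187 of them in the Bdnf control (7.50%, 7.10 to 7.92%) and 137 in the Hgf control (1.03%, 0.863 to 1.21%), a 7.30-fold difference. Within the mesenchyme they made up 44.7% and 15.6%. Sums that need no clusters lay in the same direction and less far apart: the 6 myofibroblast markers, among them Hhip, Aspn and Fgf18, reached 590 CPM over all cells of the Bdnf control and 196 CPM over those of the Hgf control. In barcodes without a cell, with 10 to 100 UMIs, they reached 339.9 and 107 CPM.

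The other mesenchymal types differed less. Adventitial fibroblasts made up 4.32% (4.00 to 4.65%) and 2.26% (2.01 to 2.52%), and matrix fibroblasts 3.22% (2.95 to 3.50%) and 1.87% (1.65 to 2.12%). The latter leave out 118 and 38 cells of an unnamed cluster led by Inmt, with Tcf21 among its top genes, whose first class was AT2. Pericytes, the cells in which the study deletes its genes, numbered 184 and 136 (1.16 and 1.02%), and the interval of their difference, from -0.386 to 0.103 points, included 0. In the Hgf control 56 of the 136 lay below 1500 UMIs, beside 1687 of all 13334 cells, so the closeness of these shares depends on the unequal minimums. Over all cells kept, the 7 pericyte markers summed to 114 and 117 CPM, and in barcodes without a cell to 135 and 156 CPM. The pericytes came from 2 clusters. In one, with 81 and 64 cells, the pericyte markers were at their highest, and in the other, with 103 and 72 cells, they lay at 0.324 of that level with smooth muscle as the second class and Tagln among the top genes. Pericytes numbered 81 and 66 (0.512 and 0.495%) in the clustering of 4 lungs. A further 147 and 76 cells lay in an unnamed cluster led by Postn whose top genes held the pericyte genes Cox4i2, Notch3 and Trpc6 and whose first class by markers was gCap. Another 306 and 181 cells lay in an unnamed cluster led by Hba-a1 and Hba-a2, with Cox4i2 and Higd1b among its top genes, whose first class was AT2 and whose second was gCap. Smooth muscle cells numbered 95 and 57.

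In the endothelium, aerocytes stood out, with 3.14% (2.87 to 3.43%) and 6.67% (6.25 to 7.10%) of all cells, 2.12-fold more in the Hgf control. General capillary cells made up 11.2% (10.7 to 11.7%) and 15.1% (14.5 to 15.7%), and within the endothelium their shares were 41.6% and 41.9%. Of the 2015 in the Hgf control, 793 lay below 1500 UMIs. At or above that depth it held 1222 gCap cells among 3536 endothelial cells and 11647 cells in all. The higher gCap share of all cells in the Hgf control was thus seen with its lower minimum and not at or above 1500 UMIs. That limit is stricter for the Hgf control, as the gCap medians were 3575.5 and 1670 UMIs. Over all cells the 5 gCap markers summed to 523 and 624 CPM, and in barcodes without a cell to 600 and 653 CPM. The part of the minimum in the share was not tested. The gCap shares leave out 611 and 679 cells (3.86 and 5.09% of all) of a cluster whose first class was gCap but whose top genes held more arterial than gCap markers. The aerocyte shares likewise leave out 135 and 258 cells (0.853 and 1.93%) of a cluster with aCap and gCap markers. A cluster of 89 and 72 cells (0.563 and 0.540%) with venous and arterial markers was counted with neither. Arterial cells made up 2.33 and 1.78%, venous cells 4.20 and 3.70%, and lymphatic cells 0.746 and 1.20%. In the epithelium, AT2 cells made up 34.0% (33.2 to 34.7%) and 38.8% (37.9 to 39.6%), and AT1 cells 7.96% (7.55 to 8.40%) and 5.78% (5.39 to 6.19%), both without a cluster of 366 and 199 cells (2.31 and 1.49%) whose first class was AT1 and whose second was AT2. The AT2 shares also leave out 197 and 165 cells of an unnamed cluster with AT2 as its first class and AT1 as its second. Likewise, the AT1 shares leave out 225 and 298 cells of an unnamed cluster with AT1 as its first class and gCap as its second. Over all cells the 8 AT1 markers lay opposite to the AT1 shares, with sums of 3129 and 3511 CPM. In barcodes without a cell these AT1 markers summed to 2266 and 2583 CPM. Club cells (1.79 and 1.76%), goblet cells (1.36 and 1.33%) and ciliated cells (1.51 and 1.51%) had overlapping intervals. Their markers summed over all cells to 4765 and 7690 CPM for club, 181 and 187 CPM for goblet and 368 and 652 CPM for ciliated cells. In barcodes without a cell the sums were 16036 and 16418, 156 and 106, and 237 and 373 CPM. Goblet cells were fewer in the clustering of 4 lungs, with 64 and 36 (0.405 and 0.270%).

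**Figure D1:**
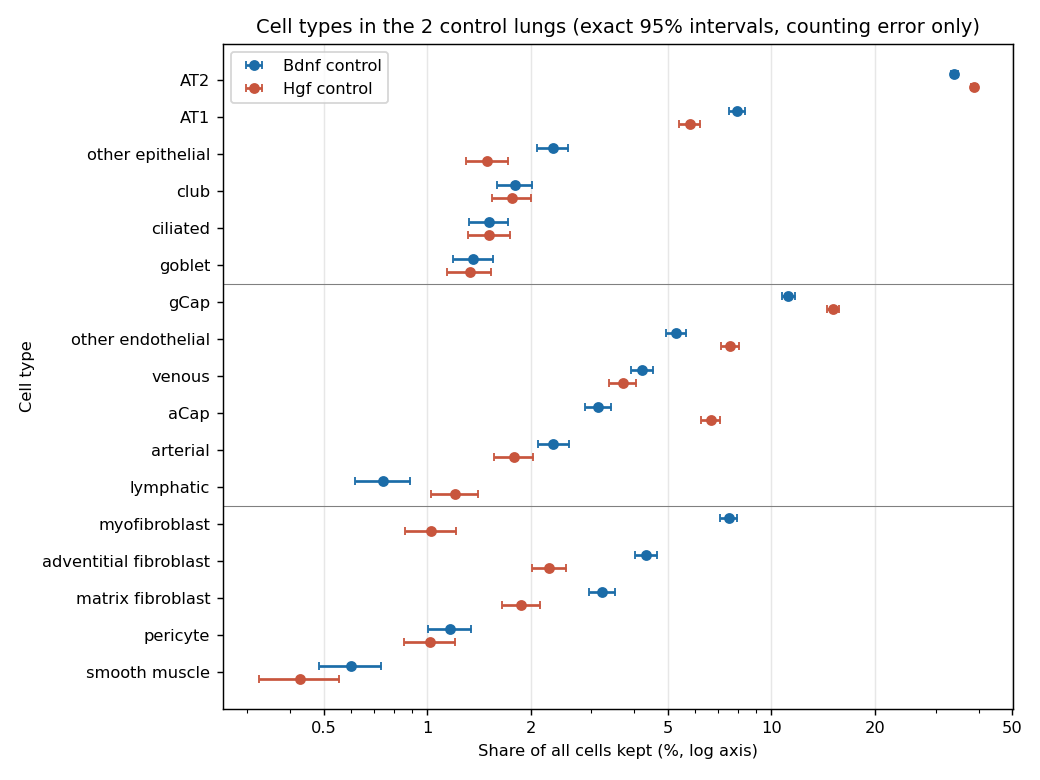
Share of all cells kept (percent, log axis) for each named cell type in the Bdnf control (blue) and the Hgf control (red), with 1 library each; bars are exact 95% intervals for counting error, and lines separate epithelial, endothelial and mesenchymal types. The myofibroblasts, at 7.50 and 1.03%, lie farthest apart, while club, goblet and ciliated cells overlap.

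Both Bdnf lungs lay above both Hgf lungs in the share of mesenchyme when all 4 lungs were clustered together. In that clustering it was 16.7% in the Bdnf control, 17.2% in the Bdnf iPCKO, 6.56% in the Hgf control and 8.42% in the Hgf iPCKO lung, and the intervals of the Hgf lungs did not overlap. Myofibroblasts made up 7.22, 8.57, 0.990 and 3.57% in the same order. Aerocytes ran the other way, at 3.10, 3.82, 6.49 and 8.57%. For AT2 cells both controls lay above both iPCKO lungs, with 35.0 and 39.3% against 27.2% in the Bdnf iPCKO lung and less in the Hgf iPCKO lung.

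UMIs were then summed per library and lineage. A gene entered with 100 or more UMIs when both sums were added. Among the 15643 such genes of epithelial cells, 550 (3.52%) were at least 2-fold higher in the Hgf control and 885 (5.66%) in the Bdnf control. In endothelial cells the counts were 453 (3.52%) and 516 (4.0%) of 12887, and in mesenchymal cells 252 (2.22%) and 491 (4.32%) of 11355. The median log2 ratio of Hgf over Bdnf control was -0.09, 0.02 and -0.09 in the 3 lineages, and the median absolute log2 ratio was 0.31, 0.29 and 0.31. The excess of genes higher in the Bdnf control changed with the scaling and with a filter on genes by their level in barcodes without a cell. With median-of-ratios scaling the split was 695 higher in the Hgf control to 758 higher in the Bdnf control in epithelial and 330 to 398 in mesenchymal cells, closer to even, and 430 to 535 in endothelial cells, further from it. Among the 6637, 7124 and 5942 genes whose level exceeded that of barcodes without a cell, it was 316 to 313 in epithelial, 298 to 260 in endothelial and 201 to 216 in mesenchymal cells.

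**Figure D2:**
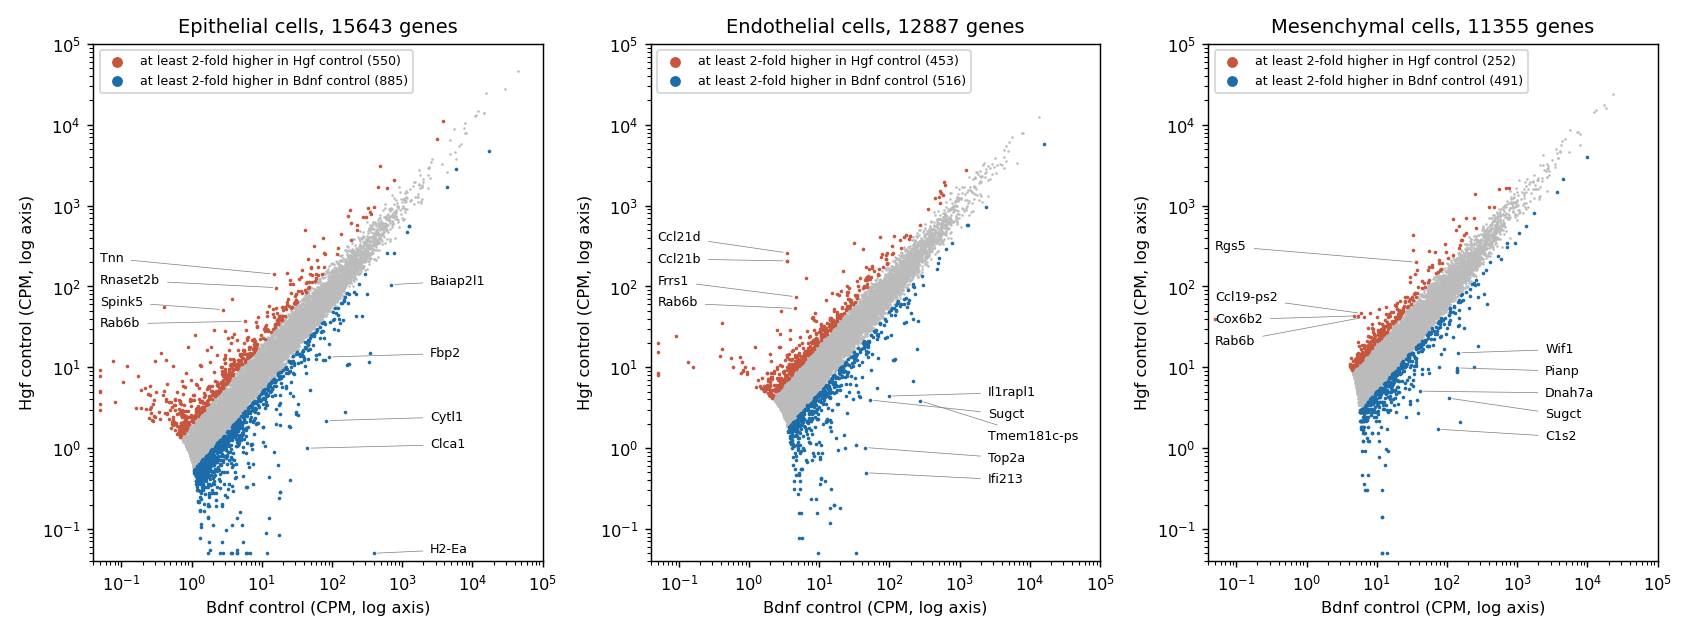
CPM of each gene in the Bdnf control (horizontal, log axis) and the Hgf control (vertical, log axis) in epithelial, endothelial and mesenchymal cells, 1 library each; grey genes are less than 2-fold apart, red ones higher in the Hgf and blue ones higher in the Bdnf control, and genes without a UMI are drawn at the edge. Labels name the genes farthest apart by the rule of the text, which leaves out numbered gene models and ribosomal protein genes, such as H2-Ea with 391 and 0 CPM.

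With cell types weighted alike within each lineage, 1377 epithelial, 919 endothelial and 621 mesenchymal genes were 2-fold apart, of which 1305, 834 and 507 were among those called without the weights. Differences were also read within single cell types. In AT2 cells 1147 of 13567 genes (8.45%) were 2-fold apart, in AT1 cells 640 of 9712 (6.59%), in gCap cells 508 of 9530 (5.33%), in aerocytes 362 of 6851 (5.28%) and in adventitial fibroblasts 434 of 8782 (4.94%). Of the genes called in the whole epithelium and tested in AT2 cells, 867 of 981 were called there too, and 264 of 386 in AT1 cells. For the endothelium it was 324 of 425 in gCap cells and 170 of 247 in aerocytes, and for the mesenchyme 259 of 387 in adventitial fibroblasts. These are subsets of the same cells and no independent evidence.

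The epithelial gene farthest apart was H2-Ea, the alpha chain of the class II molecule E, which presents antigen. It had 29237 UMIs (391 CPM) in the Bdnf control and none in the Hgf control, which is at least 4708-fold lower with a floor of 3 UMIs. In AT2 cells the levels were 584 and 0 CPM. Its partner H2-Eb1 was read in both lungs, at 196 and 172 CPM, and so were H2-Aa, at 494 and 509 CPM, and the invariant chain Cd74, at 1050 and 682 CPM. In the clustering of all 4 lungs, epithelial H2-Ea had 397 CPM in the Bdnf control, 260 in the Bdnf iPCKO and no UMI in the Hgf control or the Hgf iPCKO lung. The gene was thus read in the epithelium of both Bdnf lungs and not in that of either Hgf lung.

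Further epithelial genes were higher in the Bdnf control. Clca1, a secreted goblet cell protein, had 44.6 and 0.998 CPM (log2 ratio -5.48, -6.00 to -5.01, and -3.61 with at most 15% mitochondrial UMIs), and in goblet cells 653 and 12.03 CPM. Cytl1, a secreted cytokine-like protein, had 83.5 and 2.19 CPM (-5.25, -5.59 to -4.93), and in AT1 cells 453 and 7.40 CPM. In arterial cells Cytl1 lay the other way, with 205 and 764 CPM. Baiap2l1, which links actin to the plasma membrane, had 698 and 105 CPM (-2.73, -2.77 to -2.68). The cytochrome Cyp2a5 had 75.1 and 12.4 CPM, and the hydroxysteroid dehydrogenase Akr1c14 220 and 42.5 CPM. Fbp2, an enzyme of gluconeogenesis, the myosin heavy chain Myh7 and the chaperone Hsph1 lay between 3.73- and 6.80-fold apart.

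Epithelial genes higher in the Hgf control were led by Spink5, an inhibitor of serine proteases, with 2.81 and 51.7 CPM (4.20, 3.99 to 4.41). In AT2 cells Spink5 had 1.85 and 70.8 CPM. Tnn, the matrix protein tenascin-N, had 14.9 and 142 CPM (3.26, 3.16 to 3.35), and Rab6b, a Golgi GTPase, 5.79 and 37.2 CPM. Cyp2b10, another cytochrome, had 46.0 and 219 CPM and thus lay opposite to Cyp2a5. Tmem212, a gene of ciliated cells, had 24.9 and 107 CPM overall and 337 and 1263 CPM within ciliated cells. Rnaset2b, Tmem254, Iah1 and Ly6e lay between 4.36- and 5.99-fold apart. Rnaset2b, like Cyp2a5 above, had fractional UMIs (1206.17 and 3491.6), so multi-mapping reads were divided and its separate level is uncertain.

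Among endothelial genes higher in the Hgf control, the lymphatic chemokines were farthest apart. Ccl21d had 3.44 and 261 CPM (6.24, 5.92 to 6.60) and Ccl21b 3.43 and 207 CPM (5.92, 5.59 to 6.27). Within lymphatic cells Ccl21d had 68.1 and 5043 CPM and Ccl21b 67.9 and 3999 CPM. The genes are near-identical copies among which multi-mapping reads were divided, so their separate levels are uncertain. Frrs1, a ferric reductase, had 4.65 and 74.5 CPM (4.00, 3.71 to 4.31, and 3.36 with types weighted alike). Glp1r, the receptor of the incretin GLP-1, had 72.5 and 414 CPM (2.51, 2.43 to 2.59), and within gCap cells 188 and 979 CPM. Cyp1a1, a target of the aryl hydrocarbon receptor, had 8.43 and 38.7 CPM. Rab6b, Golm2, Begain, H2bc4 and Hba-a2 completed this group, between 4.46- and 11.9-fold higher. The haemoglobin gene Hba-a2, with 12.4 and 68.3 CPM, is itself among the 5 erythroid markers. Including Hba-a2, these summed to 36.0 and 194 CPM in endothelial cells and to 34.5 and 128 CPM in barcodes without a cell. The part of erythroid RNA was not tested. With predicted doublets kept, the log2 ratio of 2.47 for Hba-a2 was 0.44.

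Endothelial genes higher in the Bdnf control included Ifi213 and Ifi208 of the p200 family and the guanylate-binding protein Gbp4, while 13 of 15 genes of the interferon-stimulated list lay on the other side of 0. Ifi213 had 46.0 and 0.496 CPM (-6.54, -8.06 to -5.49), Ifi208 66.7 and 5.58 CPM (-3.58, -3.95 to -3.24) and Gbp4 218 and 39.0 CPM (-2.48, -2.62 to -2.35). Il1rapl1, a synaptic relative of the interleukin 1 receptor, had 98.1 and 4.41 CPM (-4.48, -4.89 to -4.10) and within venous cells 164 and 1.41 CPM. Tmem181c-ps, a pseudogene, had 274 and 3.86 CPM. Top2a, the topoisomerase of dividing cells, had 45.1 and 1.02 CPM (-5.47, -6.38 to -4.69, and -4.17 with predicted doublets kept). Sugct, St6galnac5, Wif1 and the chaperone Hspa1b lay between 6.89- and 13.4-fold apart.

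In mesenchymal cells the complement proteases C1s2 and C1rb were lower in the Hgf control. C1s2 had 74.2 and 1.71 CPM (-5.44, -6.78 to -4.21) and C1rb 53.3 and 9.45 CPM. Both had fractional UMIs, 1192.58 and 5.57 for C1s2 and 856.75 and 30.76 for C1rb. Multi-mapping reads were thus divided, and the separate levels of these genes are uncertain. The levels of C1ra and C1s1, among the top genes of an adventitial fibroblast cluster, are not given. Sugct had 106 and 4.15 CPM, and Pianp, a neural membrane protein, 140 and 9.84 CPM. In adventitial fibroblasts Pianp had 155 and 8.45 CPM, and in myofibroblasts 156 and 16.4 CPM. Wif1, a secreted inhibitor of Wnt signals, had 144 and 15.1 CPM, and 139 and 4.32 CPM in the clustering of 4 lungs. In the Bdnf control 1980 of its 2319 UMIs came from myofibroblasts, where it had 428 and 16.4 CPM, the latter from 5 UMIs. Cdh4, P4ha3, Ppih, Dnah7a and Fkbp5 were 4.40- to 8.09-fold apart. With mesenchymal types weighted alike, the log2 ratio of -2.18 for Cdh4 was -0.72 and that of -2.44 for P4ha3 was -1.18.

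Genes higher in the Hgf control mesenchyme included Plac9, a small secreted protein, with 253 and 1395 CPM (2.46, 2.40 to 2.52). In adventitial fibroblasts Plac9 had 357 and 1599 CPM, and in matrix fibroblasts 129 and 1036 CPM. Rgs5, a regulator of G protein signals and a pericyte gene, had 36.0 and 200 CPM (2.47, 2.31 to 2.64), and within pericytes 197 and 1775 CPM. In the pericyte cluster with the highest markers Rgs5 had 125 and 437 CPM, and in the one nearer to smooth muscle 257 and 2954 CPM. Actc1, the cardiac alpha actin, had 34.7 and 144 CPM, and within smooth muscle cells 790 and 2456 CPM. Cox6b2, Ccl19-ps2, Rab6b, Dubr, Tmem254, Shisa3 and Ms4a4d lay between 3.95- and 7.91-fold apart.

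**Figure D3:**
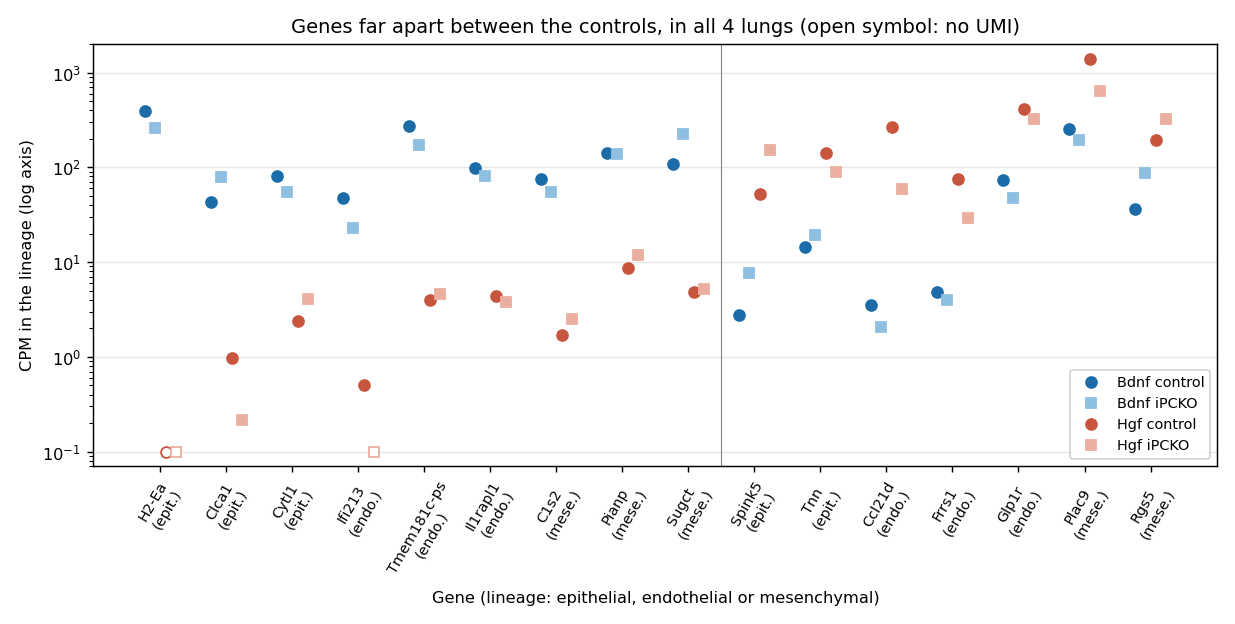
CPM (log axis) of genes far apart between the controls, each in the lineage given under its name, for all 4 lungs from their common clustering; circles are controls, squares iPCKO lungs, blue Bdnf, red Hgf, and open symbols mark genes without a UMI. In each gene both blue symbols lie on one side of both red ones, such as H2-Ea with 397, 260, 0 and 0 CPM.

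Hgf iPCKO against Bdnf iPCKO also sets the floxed lines against each other and shares no library with the controls. The paper describes the controls as littermates of the mutants, so this pair is no independent repeat of the control pair. Unlike the controls, these lungs carried induced deletions in pericytes, of Hgf or of Bdnf. Of the 60 gene and lineage pairs named above, 52 were at least 2-fold apart in the same direction between the iPCKO lungs, and 59 lay on the same side of 0. Among those outside the 52 were Akr1c14, with 216, 334, 42.1 and 286 CPM in the Bdnf control, Bdnf iPCKO, Hgf control and Hgf iPCKO epithelium and mesenchymal Fkbp5, with 143, 124, 32.5 and 178 CPM. In both genes the Hgf control stood apart from the other lungs.

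Over all genes, in the clustering of 4 lungs, the controls were 2-fold apart in 9.4% of epithelial, 7.39% of endothelial and 6.51% of mesenchymal genes. The iPCKO lungs were apart in 17.0, 16.0 and 16.4%. Bdnf iPCKO and Bdnf control were apart in 2.19, 2.05 and 2.16%, and Hgf iPCKO and Hgf control in 9.89, 9.46 and 14.8%. The last 2 comparisons each share a library with the controls. The Hgf libraries are the shallower ones, and 7535 genes could be compared in their mesenchyme against 12781 in that of the Bdnf libraries. Among genes with at least 500 UMIs, the controls were apart in 5.08, 4.13 and 3.89%, the Bdnf lungs in 0.9498, 0.990 and 1.17% and the Hgf lungs in 7.03, 6.50 and 17.8%.

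**Figure D4:**
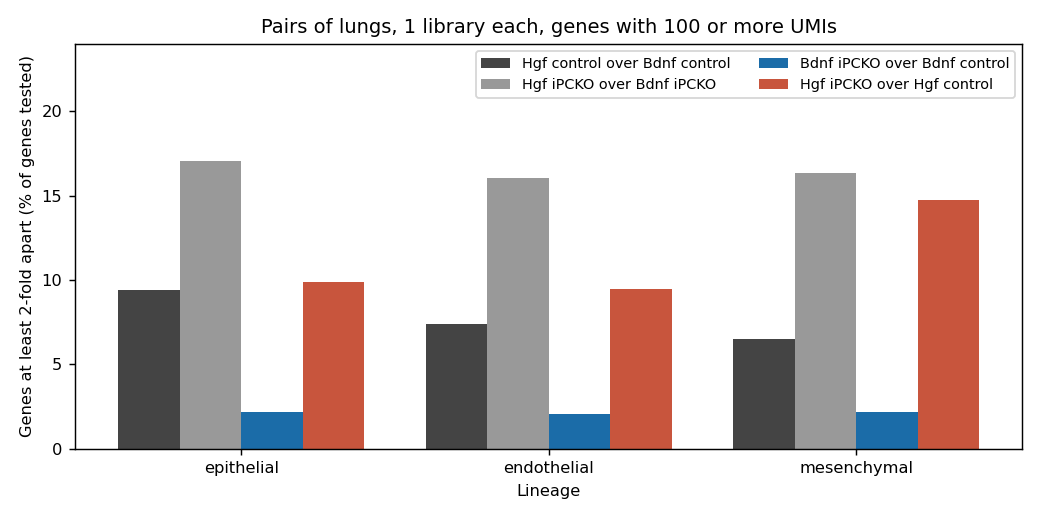
Percent of genes at least 2-fold apart (of those with 100 or more UMIs when the pair is added) in each lineage for 4 pairs of lungs, from the clustering of all 4 lungs; each bar compares 1 library with 1 library and has no error. The controls differ in 9.4, 7.39 and 6.51% of genes, more than the Bdnf pair with 2.19, 2.05 and 2.16%.

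Of the genes tested in both comparisons without a shared library, 916 epithelial genes were apart in the same direction between the controls and between the iPCKO lungs, 67.1% of those called in the controls and 36.6% of those called in the iPCKO lungs, against 13 in opposite directions. In the endothelium it was 553 genes (63.4 and 29.6%) against 15, and in the mesenchyme 328 (47.4 and 18.7%) against 31.

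Genes apart in all 3 lineages in the same direction numbered 58 higher in the Hgf control (0.553% of 10485) and 87 higher in the Bdnf control (0.83%). In the clustering of 4 lungs such genes made up 1.38% between the controls, 3.61% between the iPCKO lungs, 0.127% between the Bdnf lungs and 1.16% between the Hgf lungs, and, of the genes tested in both comparisons, 86 were shared by the controls and the iPCKO lungs, 62.8% of 137 and 24.4% of 352. Unusual classes of transcripts made up much of them. Of 191 ribosomal protein genes and their copies 19 were called (9.95%), of 659 numbered gene models 41 (6.22%), and of 9620 other nuclear genes 83 (0.863%). By annotation, 38 of 389 pseudogenes (9.77%) and 88 of 9820 protein coding genes (0.896%) were called. The mitochondrial ribosomal RNA mt-Rnr2 had 17507 and 4789 CPM in epithelial cells, and mt-Nd3, a subunit of complex I, 475 and 3128 CPM.

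Copies of 1 ribosomal protein gene could lie in opposite directions. The 11 families examined each held a gene or copy called in all 3 lineages, so the counts describe these families only. In epithelial cells their tested copies lay on both sides of 0 in 8 families and on one side in 2, with a single tested copy in 1. The log2 ratio of the summed copies ran from -0.73 to 1.79. By these sums 3 families were 2-fold apart (Rpl26 at 1.74, Rpl29 at 1.79 and Rps2 at 1.04). The copies of Rps3a had log2 ratios from -4.87 to 2.29 and the sum of the copies 0.57. For Rps13 and its copies the range was -3.24 to 3.59 and the sum 0.37, and for Rpl30 it was -3.96 to 1.72 and the sum 0.19. The levels of single copies depend on how multi-mapping reads were divided and are uncertain.

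The genes that met the rule on levels in every lineage were 8 higher in the Hgf control (Rab6b, Atp5g1, Grik3, Spag7, Chmp1a, Chchd2, Gstp2 and Mrps12) and 2 higher in the Bdnf control (Hspa8 and Dnaja1). Some genes named above for 1 lineage were also called in all 3 but missed that rule in some lineage. Their log2 ratios in epithelial, endothelial and mesenchymal cells were -2.73, -1.84 and -2.33 for Baiap2l1 and 3.24, 2.37 and 2.46 for Plac9. They were -5.96, -3.01 and -3.83 for Pianp, -5.76, -6.15 and -6.20 for Tmem181c-ps and -1.47, -4.48 and -1.22 for Il1rapl1. Atp5g1, a subunit of ATP synthase, had 35.6 and 132 CPM in epithelial, 25.02 and 99.9 CPM in endothelial and 29.5 and 115 CPM in mesenchymal cells. Chchd2, a mitochondrial protein, had 226 and 577, 193 and 427, and 156 and 375 CPM. In barcodes without a cell these genes went the same way as in cells, with 17.4 and 69.4 CPM for Atp5g1 and 122 and 261 CPM for Chchd2. The part of free RNA in these differences was not tested.

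Hspa8 and Dnaja1 belong to the chaperones of the heat shock response, which refold proteins and are induced by heat shock factor. Heat shock factor binds inverted repeats of GAA. As examples of windows that hold such a repeat, 150 bases before the start are printed for Hspa1a, Hspa1b and Dnaja1, from RefSeq on GRCm38.p6, 5′ to 3′ on the strand of the gene, with the repeat GAANNTTC in capitals. Hspa1a lies on chromosome 17, minus strand, at chr17:34972157-34972306, Hspa1b on the same strand at chr17:34959239-34959388, and Dnaja1 on the plus strand at chr4:40722318-40722467.
Hspa1a: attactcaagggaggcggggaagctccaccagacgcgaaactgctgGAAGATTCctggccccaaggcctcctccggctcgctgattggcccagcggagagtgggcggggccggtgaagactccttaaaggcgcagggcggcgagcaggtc
Hspa1b: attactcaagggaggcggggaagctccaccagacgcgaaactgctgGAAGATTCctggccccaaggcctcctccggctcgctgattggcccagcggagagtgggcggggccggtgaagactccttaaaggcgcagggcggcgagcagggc
Dnaja1: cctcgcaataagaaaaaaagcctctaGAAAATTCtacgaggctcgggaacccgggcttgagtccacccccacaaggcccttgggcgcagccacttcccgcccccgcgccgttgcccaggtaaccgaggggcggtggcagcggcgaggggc
The repeat begins 104 bases before the start of Hspa1a and Hspa1b, whose windows are nearly identical, and 124 bases before that of Dnaja1. The pattern GAANNTTC is its own reverse complement, so both strands were covered. In windows of 250 bases before the start it was present in 6 of the 9 listed genes with a window, Hspb1, Hspd1 and Hspe1 being the others. It was not found in those of Bag3, Dnajb1 and Hsph1, and it was present in 6.69% of 32851 windows in all. A match of letters is no bound site.

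Of the 12 heat shock genes, 6 were at least 2-fold higher in the Bdnf control in epithelial cells, 6 in endothelial and 4 in mesenchymal cells, and none was 2-fold higher in the Hgf control. Of all genes, 5.66, 4.0 and 4.32% were 2-fold higher in the Bdnf control. The median log2 ratio was -0.998, -0.96 and -0.61. Hspa1b, the inducible HSP70, had 121 and 29.1 CPM in epithelial cells (-2.06, -2.15 to -1.96), 258 and 37.5 CPM in endothelial cells (-2.78, -2.92 to -2.65) and 455 and 290 CPM in mesenchymal cells (-0.65, -0.75 to -0.55). Hspa1a and Hspa1b are near-identical genes, so the split of their reads is uncertain. Hsph1, a nucleotide exchange factor of HSP70, had 131 and 35.2, 91.0 and 23.96, and 149.8 and 51.0 CPM. Hsp90aa1, the inducible HSP90, had 1231 and 555, 494 and 194, and 722 and 343 CPM, the last pair short of 2-fold in 2 of 10 settings. In barcodes without a cell Hspa1b had 176 and 49.0 CPM, Hsph1 91.6 and 34.4 CPM and Hsp90aa1 499 and 272 CPM, so that epithelial Hspa1b and endothelial Hsph1 and Hsp90aa1 lay below these levels in both lungs. Hspa8 had 289 and 215 CPM there and lay above in each lineage. The part of free RNA was not tested. Dnajb1, another heat-induced cochaperone, had 74.6 and 64.8 CPM in epithelial and 96.4 and 96.1 CPM in endothelial cells. Bag3 was higher in the Hgf control endothelium, with 116 and 169 CPM, short of the 2-fold limit. Both Bdnf lungs lay above both Hgf lungs: epithelial Hspa8 had 1151, 1128, 470 and 377 CPM in the Bdnf control, Bdnf iPCKO, Hgf control and Hgf iPCKO lung, and the median of the list between the iPCKO lungs was -1.07, -0.89 and -0.66 in the 3 lineages.

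Genes of sterol and fatty acid synthesis were higher in the Hgf control on balance. In epithelial cells all 18 lay above 0, with a median log2 ratio of 0.71, and 3 were called higher, against 3.52% of all genes. Scd1, which desaturates fatty acids, had 3852 and 11099.9 CPM (1.53, 1.52 to 1.53), and in barcodes without a cell 1348 and 4164 CPM, more than in endothelial or mesenchymal cells. Msmo1, an enzyme of cholesterol synthesis, had 71.4 and 143 CPM, short of 2-fold in 1 of 10 settings. In endothelial cells 15 of 17 lay above 0 (median 0.60) with 2 called higher (3.52% of all genes), and in mesenchymal cells 14 of 17 (median 0.56) with 3 called higher (2.22% of all genes) and Acaca, which starts fatty acid synthesis, called lower at 45.8 and 19.5 CPM, a call lost at -0.98 with types weighted alike. The levels also differed within each floxed line. Epithelial Scd1 had 3878 and 1971 CPM in the Bdnf control and iPCKO and 11159 and 3508 CPM in the Hgf control and iPCKO lung. Between the Hgf lungs 7 of 18 epithelial, 13 of 17 endothelial and 9 of 14 mesenchymal genes of the list were called lower in the iPCKO and none higher, beside 9.89, 9.46 and 14.8% of all genes called in either direction. Between the Bdnf lungs 0 of 18, 0 of 17 and 4 of 18 were called lower, beside 2.19, 2.05 and 2.16%. The median of the list between the iPCKO lungs, Hgf over Bdnf, was 0.25, -0.39 and 0.16, so that the endothelial genes lay opposite to the controls on balance. Genes of surfactant and lamellar bodies were not called in any of 11 cases, with a median of 0.34: Sftpc had 44041 and 46967 CPM, Lyz2 15454 and 24427 CPM and Lpcat1 933 and 1464 CPM.

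Clock genes were apart in both directions. Per1, a repressor of the clock that also responds at once to hormones, was higher in the Hgf control in all 3 lineages, with 17.5 and 43.5 CPM in epithelial (1.32, 1.21 to 1.42), 25.1 and 84.3 CPM in endothelial and 29.5 and 69.5 CPM in mesenchymal cells. Its relative Per2 was lower in all 3, with 46.9 and 20.9, 20.3 and 6.03, and 51.4 and 18.4 CPM. In mesenchymal cells 7 of 15 clock genes were called lower, against 4.32% of all genes. Among them were the output factor Hlf with 276 and 108 CPM (-1.35, but -0.59 and not called with types weighted alike) and Per3 with 17.1 and 4.00 CPM. Mesenchymal Per2 and Per3 had under 100 UMIs in the Hgf control and passed the filter through the Bdnf control, so this count is a description only. In barcodes without a cell Per1 had 35.7 and 90.8 CPM, Per2 83.8 and 58.2 CPM and Per3 69.5 and 44.0 CPM, above their levels in each lineage where they were called, and Hlf 23.3 and 4.73 CPM. The part of free RNA was not tested. The activators Bmal1 and Clock were not called. These genes also differed within each floxed line: endothelial Nr1d1, a repressor of Bmal1, had 19.5, 36.4, 10.5 and 228 CPM in the Bdnf control, Bdnf iPCKO, Hgf control and Hgf iPCKO lung. Between Hgf iPCKO and Hgf control, 12 of 17 epithelial clock genes were called higher and 3 lower, against 5.13 and 4.76% of all genes. Between the iPCKO lungs, Hgf over Bdnf, the median of the clock list was 0.33, 0.59 and 0.55 in the 3 lineages, opposite in sign to -0.38, -0.35 and -0.88 between the controls in the same clustering. In the mesenchyme 6 of 16 were called higher there and none lower. It was 6 of 17 higher and 2 lower in the epithelium, and 5 of 15 higher and 3 lower in the endothelium. Of all genes 16.4, 17.0 and 16.0% were called in either direction in these lineages. The labels give no hour of collection.

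Genes of the glucocorticoid and fasting response were lower in the Hgf control where they were called, 4 of 13 in epithelial, 3 of 11 in endothelial and 4 of 13 in mesenchymal cells, against 5.66, 4.0 and 4.32% of all genes. Zbtb16, a transcription factor induced by the hormone, had 89.4 and 19.4 CPM in epithelial, 299.7 and 106 CPM in endothelial and 372 and 61.2 CPM in mesenchymal cells. In barcodes without a cell Zbtb16 had 374 and 314 CPM, and the part of free RNA was not tested. Fkbp5, which restrains the hormone receptor, had 17.7 and 3.45, 49.1 and 15.3, and 142 and 32.4 CPM, beside 46.8 and 24.1 CPM in barcodes without a cell. Mesenchymal Tsc22d3 had 359 and 160 CPM (-1.17, but -0.91 with types weighted alike) and Mt2 597 and 220 CPM. Mesenchymal Zbtb16 had 372, 383, 62.0 and 299 CPM in the Bdnf control, Bdnf iPCKO, Hgf control and Hgf iPCKO lung, the lowest value being that of the Hgf control. Between the Hgf lungs 8 of 13 epithelial, 9 of 13 endothelial and 12 of 13 mesenchymal genes of this list were called higher in the iPCKO, against 5.13, 3.77 and 8.0% of all genes. Between the Bdnf lungs 5, 2 and 0 of 13 were called higher in the iPCKO, against 1.62, 0.916 and 1.13% of all genes. Between the iPCKO lungs 2, 6 and 9 of 13 were called higher in the Hgf iPCKO and none lower, opposite to the controls, beside 17.0, 16.0 and 16.4% of all genes in either direction.

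Genes of cell division were lower in the Hgf control endothelium. Summed over all 53 genes of G2 and mitosis, with no filter on UMIs, they had 1752 and 1117 CPM there (log2 ratio -0.65), 1144 and 1002 CPM in epithelial and 997 and 927 CPM in mesenchymal cells. In barcodes without a cell the same sum was 1044 and 1018 CPM, near each of these values but that of the Bdnf control endothelium. Of the 42 that passed the filter in the endothelium, 27 were called lower (4.0% of all genes were) and none higher. Since 25 of the 27 had under 100 UMIs in the Hgf control and passed the filter through the Bdnf control, the count describes these genes only. Mki67 had 32.9 and 1.10 CPM (-4.91, -5.79 to -4.15, and -3.78 with predicted doublets kept), the cyclin Ccna2 18.4 and 0.939 CPM (-4.29, -5.26 to -3.47), and Nuf2, a part of the kinetochore, 125 UMIs against 1 (-6.19, -11.50 to -3.68). In epithelial cells 15 of 41 were called lower, 14 of them in the same way, and in mesenchymal cells 1 of 19, against 5.66 and 4.32% of all genes. Genes of S phase were called lower in 7 of 36, 7 of 32 and 4 of 21 cases, against 5.66, 4.0 and 4.32% of all genes, with 4, 6 and 4 of them under 100 UMIs in the Hgf control. Summed over all 42 they had 529 and 425, 822 and 645, and 664 and 479.9 CPM. The helicase Mcm6 was low in each lineage, with 15.9 and 3.08, 33.7 and 6.07, and 18.9 and 2.77 CPM.

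The number of dividing cells was small. Among endothelial cells, 40 of 4255 in the Bdnf control and 2 of 4804 in the Hgf control had UMIs of at least 3 of 10 mitotic genes. Thinned to 1500 UMIs after fractional UMIs were rounded, which left out 11 and 1324 cells, 34 of 4244 (0.801%, 0.555 to 1.12%) and 1 of 3480 (0.0287%, 0.000728 to 0.160%) had at least 2. At least 1 of the 10 genes was read in 3.39% (2.87 to 3.98%) and 1.58% (1.19 to 2.05%), a smaller gap. In the clustering of 4 lungs the thinned shares with at least 2 were 0.813% in the Bdnf control, 0.255% in the Bdnf iPCKO, 0.0293% in the Hgf control and 0.0725% in the Hgf iPCKO lung, and those with at least 1 were 3.70, 3.15, 1.87 and 2.47%. Immune cells were the most mitotic group in both lungs, with 14 of 74 and 33 of 106 cells at 3 of 10 genes without thinning.

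Of the genes that the study followed in its mutants, 3 of 12 were called lower in the Hgf control epithelium (Gja5, Ccna2 and Mki67), 3 of 13 in the endothelium (the same 3 genes) and 2 of 12 in the mesenchyme (Bdnf and Tinag), and none was called higher. The shares of all genes called lower were 5.66, 4.0 and 4.32%. Apart from endothelial Gja5, with 762.5 UMIs, each called gene had under 100 UMIs in the Hgf control and passed the filter through the Bdnf control, so these counts are descriptions only. Mesenchymal Tinag also lay below its level in barcodes without a cell, at 167 and 133 CPM there. The epithelial calls were lost in at least 1 of 10 settings each, with log2 ratios of -0.70 instead of -1.19 for Gja5, -0.61 instead of -1.47 for Ccna2 and -0.999 instead of -1.63 for Mki67. In endothelial cells Plvap, the protein of fenestral diaphragms, had 1264 and 1179 CPM (-0.10, -0.13 to -0.07), the integrin Itga1 851 and 1008 CPM (0.24, 0.21 to 0.28), the apelin receptor Aplnr 123 and 136 CPM, the cyclin Ccnd1 177 and 185 CPM and Ntrk2, the receptor of BDNF, 24.3 and 32.1 CPM. Gja5, a connexin of arteries, had 125 and 59.7 CPM (-1.07, -1.19 to -0.96), and within arterial cells 919 and 598 CPM. With endothelial types weighted alike its log2 ratio was -0.71. In epithelial cells Met, the receptor of HGF, had 184 and 145 CPM, Lamp3, a lamellar body protein of AT2 cells, 1774 and 2391 CPM, Abca3, the transporter of surfactant lipids, 595 and 587 CPM, and Tinag 104 and 88.5 CPM.

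The floxed genes themselves were read in both controls. Bdnf lies on chromosome 2 from 109505045 to 109557475 and Hgf on chromosome 5 from 16758041 to 16828178 of GRCm39. AT1 cells held the highest Bdnf levels, with 211 and 334 CPM (0.66, 0.56 to 0.77), and myofibroblasts had 78.8 and 39.3 CPM. In the whole mesenchyme Bdnf was called lower in the Hgf control, at 28.5 and 7.68 CPM (-1.89, -2.53 to -1.31, and -1.05 with types weighted alike), beside 32.4 and 32.1 CPM in barcodes without a cell, while pericytes had 32.4 and 40.2 CPM from 23 and 10 UMIs. Hgf had 114 and 108 CPM in pericytes from 81 and 27 UMIs (-0.07, -0.76 to 0.57), most of them, 75 and 23, from the cluster with the highest pericyte markers, where it had 235 and 197 CPM. Of the Bdnf UMIs 18 and 9 came from the other pericyte cluster. Hgf also had 34.7 and 48.1 CPM in gCap cells. Within 5 Mb of Bdnf, 6 of 42 epithelial, 2 of 34 endothelial and 3 of 29 mesenchymal genes were called. Within 5 Mb of Hgf it was 4 of 24, 0 of 18 and 2 of 18. Of all genes 9.17, 7.52 and 6.54% were called in either direction. Near Bdnf these included Fibin in endothelial cells, with 38.3 and 129 CPM, and mesenchymal Actc1. Fibin is one of the markers that named the aerocytes, which made up 11.7 and 18.5% of endothelial cells, and their part in its level was not tested. Near Hgf they included the guidance cue Sema3a in mesenchymal cells, with 13.3 and 6.46 CPM.

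The following counts stand beside 9.17% of all epithelial, 7.52% of endothelial and 6.54% of mesenchymal genes called in either direction. Of 13 mesenchymal collagen genes and 12 genes of elastic fibres none was called, with Col1a1 at 22907 and 24018 CPM and Eln at 7780 and 7786 CPM. Of 10 further AT1 genes Aqp5 was higher in the Hgf control, at 186 and 377 CPM, short of 2-fold in 2 of 10 settings, and within AT1 cells at 723 and 1531 CPM. Pxdc1 and Timp3 were lower in the epithelium, at 203 and 85.7 CPM and at 1264 and 564 CPM, but not with epithelial types weighted alike, at log2 ratios of -0.64 and -0.67. Within AT1 cells they were less than 2-fold apart, at 1106 and 693 CPM and at 6084 and 3787 CPM. Of 19 endothelial identity genes Sparcl1 was called higher, at 163 and 404 CPM, and Gja5 lower. Of 13 mesenchymal signals Pdgfrb, whose promoter drives the recombinase in the mutants, was higher at 81.2 and 163 CPM (2.01-fold, and short of 2-fold in 7 of 10 settings), and in pericytes it had 543 and 1044 CPM, with 751 and 1492 CPM in the cluster with the highest markers and 372 and 649.7 CPM in the other. In the clustering of 4 lungs mesenchymal Pdgfrb had 81.2 and 203 CPM in the Bdnf control and iPCKO and 162 and 960 CPM in the Hgf control and iPCKO lung.

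Among interferon-stimulated genes, 2 of 16 were called in the epithelium (Isg15 higher and Ifit1 lower in the Hgf control, the latter -0.57 and not called with types weighted alike), 1 of 12 in the mesenchyme (Ifit1, lower) and 1 of 15 in the endothelium, Isg15 with 14.6 and 31.1 CPM, against 9.17, 6.54 and 7.52% of all genes. In the endothelium 13 of the 15 lay above 0, with a median log2 ratio of 0.27 beside 0.02 for all genes. The counts of the other lists in this paragraph stand beside the same shares. Of 14 antigen presentation genes H2-K1 was called in epithelial cells, at 225 and 493 CPM, and H2-Q7 and H2-Ab1 in endothelial cells, at 57.1 and 168 CPM and at 24.1 and 51.1 CPM. The class I genes are close copies and their split is uncertain. Of 17 immediate-early genes 1 was called in each lineage, Atf3 in epithelial cells and Jund in the others, all higher in the Hgf control. Above 0 lay 12 epithelial, 16 endothelial and 11 mesenchymal genes of this list. Its median log2 ratios were 0.49, 0.60 and 0.18, beside -0.09, 0.02 and -0.09 for all genes. Hypoxia genes held 1 call, Ndrg1 in endothelial cells with 133 and 65.7 CPM, short of 2-fold in 5 of 10 settings. Of 11 imprinted growth genes the mesenchyme had H19 higher, at 27.3 and 74.7 CPM, and Dlk1 lower, at 25.3 and 5.53 CPM. Dlk1 had under 100 UMIs in the Hgf control and passed the filter through the Bdnf control. In the clustering of 4 lungs H19 had 21.9 and 25.6 CPM in the controls. In the epithelium Igf2 was lower, at 7.05 and 3.45 CPM, and short of 2-fold in 6 of 10 settings.

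Transcripts from the Y chromosome were read in both lungs, with Ddx3y at 90.1 and 110 CPM in epithelial cells, while the X inactivation transcript Xist had 8.5 and 3.5 UMIs there. Kdm5d, another Y gene, was called lower in mesenchymal cells, at 18.2 and 7.68 CPM, with under 100 UMIs in the Hgf control. Glo1, whose copy number varies between mouse strains, had 54.2 and 53.1 CPM in epithelial cells, and Alad, which varies likewise, 81.7 and 77.4 CPM. In endothelial and mesenchymal cells the log2 ratios were -0.05 and 0.03 for Glo1 and -0.69 and -0.47 for Alad. Between the iPCKO lungs 1 of the 2 genes was called lower in the mesenchyme and none in the other lineages, beside 16.4, 17.0 and 16.0% of all genes in either direction. Nnt, the third gene of this list, did not have a symbol that occurs once and was left out. H2-Ea, with 391 and 0 CPM in epithelial cells, was not in the list. Whether the genetic backgrounds of the lines are alike was not tested.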

How the data were processed

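Single-cell libraries of dissociated lung were made with the BD Rhapsody whole transcriptome kit. The authors aligned the reads with STAR 2.7.10a to GRCm39 and deposited estimated counts of UMIs per gene and barcode without a cell filter, dividing multi-mapping UMIs between genes by expectation maximization, so that 8.50 and 9.19% of the entries were fractional. These expected counts were summed here without rounding, as no count model was fitted. Per library, depth was 169814433 and 73446420 UMIs.

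Cells were chosen by the limits in the report and predicted doublets (Scrublet in scanpy 1.11.5, expected rate 0.1, 1 score limit for all libraries) were removed. Libraries were aligned by a Harmony-type correction written for this work, on 100 principal components of 3000 variable genes, and clustered with 30 neighbours at Leiden resolution 1. Each cluster was called after the class whose markers were highest in it by their median (0.25 or more of the top cluster), if 3 or more of them were detected in 10% of cells and lay 2-fold above the rest, and if no unrelated class reached 0.25 and no other lineage held more markers among the cluster's 10 top genes by fold. Where a second class of the same lineage reached 0.7 of the first, or another class held more markers among these 10 genes, only the lineage was named. These limits were set after marker levels were seen. UMIs were summed per library and lineage or type, and ratios of CPM were given with exact conditional intervals (scipy 1.17.1). Of 56884 gene rows, 56587 had a symbol that occurs once. Where a library had 0 UMIs, 3 were assumed for a bound.

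Named genes are, per lineage and direction, the 10 with the largest ratio among genes with 100 UMIs, a mean of 20 CPM, a unique symbol and a level at least that of barcodes without a cell, leaving out mitochondrial, ribosomal protein and numbered genes; up to 10 per direction called in all 3 lineages; members of 20 lists (326 genes); and genes called within 5 Mb of Bdnf or Hgf. Values of other genes (mt-Rnr2, mt-Nd3 and ribosomal copies) were chosen after they were seen. The comparison, lists and markers were chosen with earlier results of these data known. Some genes that meet these rules are not reported here. Bmal1 stands in the files under its older symbol Arntl. The procedure was tested on simulated counts.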

Additional observations from a re-analysis of the deposited data

How the results depend on the processing

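None of the differences in lineage share changed sign. The difference in mesenchymal share stayed between -12.6 and -9.59 points over 9 settings. With 1500 UMIs in both libraries the epithelial and endothelial differences were 7.19 and 2.59 points, and with 1000 UMIs 3.33 and 8.05 points. With at most 15% mitochondrial UMIs the epithelial, endothelial and mesenchymal differences were 5.71, 7.50 and -12.6 points, and with predicted doublets kept the endothelial one was 7.17 points. Counts of genes 2-fold apart moved with the rule on genes, given for epithelial, endothelial and mesenchymal cells and for all 3 together. They were 3411, 2552, 2039 and 373 with a minimum of 20 UMIs, and 563, 347, 238 and 56 with 500. They were 764, 496, 242 and 71 where the whole interval lay past 2-fold, and 629, 558, 417 and 61 for genes above the barcodes without a cell. The endothelial split of calls, 453 higher in the Hgf control to 516 in the Bdnf control, was 298 to 260 for those genes and 181 to 166 with 500 UMIs. The causes of these shifts were not tested, apart from the number of genes entering. The other 55 values moved by less than the limits set for values, although with median-of-ratios scaling the share of mesenchymal calls higher in the Hgf control went from 33.9 to 45.3%. Of 87 pairs of a lineage and a gene named for the largest ratio or for all 3 lineages, none changed sign over 10 settings and 2 lost their call, Hba-a2 in endothelial and Cdh4 in mesenchymal cells. Of the 799 pairs from the gene lists, 141 changed sign in at least 1 setting, among them endothelial Plvap, Aplnr and Ccnd1, and none of these was called. Of the 165 called ones, 49 fell short of 2-fold in at least 1 setting, among them Gja5, Ccna2, Mki67, Aqp5 and Msmo1 in epithelial, Gja5 in endothelial and Acaca in mesenchymal cells. The log2 ratio of Tmem212 was 1.4995 instead of 2.10 with at most 15% mitochondrial UMIs, and that of Begain 1.62 instead of 2.40 with types weighted alike. With 1 library per genotype no library could be left out. No paired analysis was possible because each genotype has 1 library and no test was made. Depth limits the Hgf control mesenchyme most, with 3253150 UMIs against 16063400.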
